A study of Solanum lycopersicum x Solanum pennellii and Solanum lycopersicum with 21 samples.

Results

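HPL and LOX1.1 encode a pair of enzymes of fatty acid hydroperoxide metabolism, and their transcripts were followed in tomato anthers. Both were found by their symbols in the platform annotation. HPL had 1 probe set (Les.3478.1.S1_at) and LOX1.1 had 1 (Les.3668.1.S1_at), together 2 of the 10101 probe sets tested. HPL was chosen because earlier results of these data showed it lower in IL-7_2, and LOX1.1 because they showed it higher in IL-8_1_1. Differences that involve HPL in IL-7_2 or LOX1.1 in IL-8_1_1 are therefore given as descriptions, with no test.

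The study asked how each of 4 introgression lines differs from domesticated tomato in its anthers, which were taken 1 day before flowering. The lines were IL-1_1_3 (3 arrays), IL-4_2 (4 arrays), IL-7_2 (4 arrays) and IL-8_1_1 (4 arrays), each set against M82 (6 arrays), the domesticated Solanum lycopersicum parent. The lines are labelled as crosses of Solanum lycopersicum with the wild Solanum pennellii. An introgression line carries a segment of the wild genome in a domesticated background. The line label of IL-1_1_3 reads IL-1_1, and that of IL-8_1_1 reads IL-8_1. In the submitters' design text the lines are named hybrids. How many segment copies a plant carried is not stated, nor is whether anthers of several plants were pooled. All plants were grown and handled alike in a greenhouse, with no treatment. The labels do not say whether the arrays of a group came from separate plants, so p-values measure the spread between these arrays, which may be technical.

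Plants oxygenate linoleic and linolenic acid with lipoxygenases, which are grouped into 9-lipoxygenases and 13-lipoxygenases by the carbon they attack. The fatty acid hydroperoxides that result are shared by competing enzymes of the CYP74 family. Hydroperoxide lyase (HPL) cleaves them into short aldehydes, among them the green leaf volatiles. Allene oxide synthase (AOS) takes the same hydroperoxides toward jasmonate, which in tomato flowers is needed for fertility. Divinyl ether synthase (DES) turns 9-hydroperoxides into divinyl ethers. LOX1.1 is the tomato lipoxygenase A gene, a 9-lipoxygenase.

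The deposited values are log2 expression values, so that a difference of 1 is a doubling, and they ran across 3.39 to 14.69. Array medians lay between 9.49 and 9.55. Arrays of 1 group correlated at 0.925 to 0.998 across probe sets, and no pair of arrays held identical values. Precision is set by how many arrays there are, as arrays have no read depth, and calls of signal above background were not used here. The markers listed for pollen were read in every group. Shy averaged 13.95 in IL-7_2 and 14.01 in M82, and the receptor kinase gene PRK2 averaged 12.46 in IL-7_2 and 12.52 in M82. LAT61 averaged 10.85 in IL-7_2 and 10.66 in M82. PRK1 averaged 11.84 in IL-7_2 and 12.36 in M82. PRK3 averaged 6.37 in IL-7_2, with arrays from 4.71 to 9.72, and 7.32 in M82, with arrays from 5.51 to 8.64. Stig1, a stigma gene kept in that list, read 4.22, 8.86, 4.33 and 4.19 in IL-8_1_1 and between 4.12 and 4.36 in M82, so that 1 array stood apart. No tapetum marker had a symbol in the annotation. In whole anthers, fewer cells of a type and less RNA per cell cannot be told apart.

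HPL was lower in IL-7_2 than in the other 3 lines and M82, whose values lay close together. In IL-7_2 the 4 arrays read 11.50, 11.08, 12.37 and 12.10. The 6 M82 arrays ran between 13.58 and 13.71, with a median of 13.66. Each IL-7_2 array lay below each M82 array, and 1.21 log2 units separated the highest IL-7_2 array from the lowest M82 array. HPL averaged 11.76 ± 0.58 in IL-7_2 (SD, n = 4) and 13.65 ± 0.04 in M82 (SD, n = 6). The difference was -1.89 ± 0.16 log2 units (SE of the linear model), with a 95% interval of -2.23 to -1.55, or 3.70-fold lower in IL-7_2. That SE rests on a spread pooled over all groups, so it and the interval are narrow next to the scatter of the IL-7_2 arrays. The same holds for the differences of IL-7_2 from the other lines.

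The other lines gave HPL values close to those of M82. In IL-1_1_3 HPL read 13.82, 13.67 and 13.83. In IL-4_2 it read 13.75, 13.78, 13.80 and 13.84. In IL-8_1_1 it read 13.59, 13.60, 13.69 and 13.50. Every one of these 11 arrays lay more than 1 log2 unit above the highest IL-7_2 array. IL-7_2 was below IL-1_1_3 by -2.01 ± 0.19, below IL-4_2 by -2.03 ± 0.18 and below IL-8_1_1 by -1.83 ± 0.18 log2 units. HPL was thus among the 81 probe sets (0.802% of those tested) whose 4 IL-7_2 values all lay below the 17 other arrays, which its choice fixed.

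**Figure D1:**
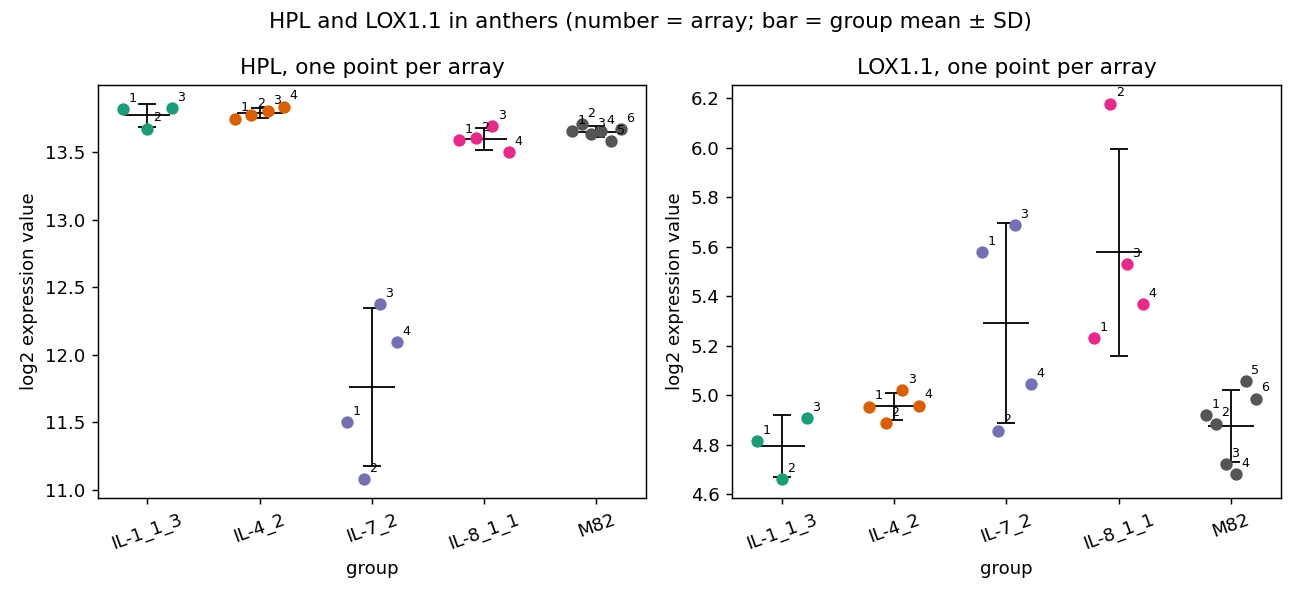
Log2 expression value of HPL (left) and LOX1.1 (right) in each of the 21 arrays, by group, with the array number beside each point and bars for the group mean ± SD. HPL in IL-7_2 lies at 11.08 to 12.37, below all other arrays (13.50 to 13.84), and LOX1.1 in IL-8_1_1 lies at 5.23 to 6.18, above the M82 range of 4.68 to 5.06 and overlapping IL-7_2.

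HPL also had a wider spread inside IL-7_2 than in any other group. Its SD was 0.583 over the 4 IL-7_2 arrays and 0.0602 pooled over the other groups, a ratio of 9.70. The lowest and highest IL-7_2 arrays differed 2.46-fold on the linear scale. Many probe sets spread in that line: 17.1% of those tested had an SD in IL-7_2 at least as large as that of HPL. In M82 the position was the other way round, as 99.1% of probe sets had an SD at least as large as that of HPL. The HPL signal was brighter than 74.2% to 90.3% of probe sets in the IL-7_2 arrays, and brighter than 98.4% to 99.4% in each of the 17 other arrays. Brightness here bears on the measuring range only, since probe sets bind with different strength. Outside IL-7_2 HPL read 13.50 to 13.84, near the highest value of any probe set, 14.69. At so bright a signal a log2 difference or an SD may be understated, which was not tested.

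Whether HPL differed in the other lines was tested with limma over all probe sets and 21 arrays, where all 4 comparisons share the M82 arrays. The limma difference from M82 was 0.12 ± 0.18 in IL-1_1_3 (adjusted p = 0.697, 95% interval -0.25 to 0.49). It was 0.14 ± 0.16 in IL-4_2 (limma, adjusted p = 0.723, 95% interval -0.20 to 0.48) and -0.06 ± 0.16 in IL-8_1_1 (limma, adjusted p = 0.921, 95% interval -0.39 to 0.28). None of these lines differed from M82 in HPL by that test. The model's spread for HPL includes the wide IL-7_2 group, so its intervals are wide next to the scatter of the other groups.

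IL-4_2 stood slightly above M82 in HPL when only those arrays were used. All 4 IL-4_2 arrays lay above all 6 M82 arrays, by a gap of 0.04, which 3.68% of probe sets did in that line. A two-sided exact permutation test of the 4 against 6 arrays gave p = 0.00476, the smallest it can give, and 0.0286 adjusted over the 6 comparisons tested for the pair of genes. With IL-7_2 left out of the limma model the adjusted p over all probe sets was 0.157, and in a model of those 2 groups alone it was 0.219. The difference of 1.1-fold was thus called by the exact test and not by limma. IL-1_1_3 had 2 of 3 arrays above all M82 arrays (exact permutation p = 0.0238, adjusted 0.0714). IL-8_1_1 had none above them (exact permutation p = 0.186, adjusted 0.279).

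Ordered by mean, HPL was lowest in IL-7_2, then came IL-8_1_1, M82, IL-1_1_3 and IL-4_2. IL-8_1_1 and M82 are neighbours whose values overlapped, as did those of M82 and IL-1_1_3. IL-4_2 minus IL-1_1_3 was 0.02 ± 0.19 (limma, adjusted p = 0.996), and those groups overlapped. IL-8_1_1 minus IL-1_1_3 was -0.18 ± 0.19 (limma, adjusted p = 0.895). No array of IL-8_1_1 reached the lowest IL-4_2 array, yet IL-8_1_1 minus IL-4_2, at -0.20 ± 0.18, was not called by limma either, with an adjusted p that rounds to 1 and an interval of -0.57 to 0.17.

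LOX1.1 gave a dim signal in every group and its highest mean in IL-8_1_1. There the 4 arrays read 5.23, 6.18, 5.53 and 5.37. The 6 M82 arrays ran between 4.68 and 5.06, with a median of 4.90. Each IL-8_1_1 array lay above each M82 array, by a gap of 0.17, and array 2 stood 0.65 above the next. LOX1.1 averaged 5.58 ± 0.42 in IL-8_1_1 (SD, n = 4) and 4.88 ± 0.15 in M82 (SD, n = 6). The difference was 0.70 ± 0.17 log2 units with a 95% interval of 0.35 to 1.05, or 1.63-fold higher in IL-8_1_1. Without IL-8_1_1 array 2 it was 0.50. Probe sets with all their IL-8_1_1 values above all M82 values made up 1.40% of those tested.

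In the other lines LOX1.1 lay at or slightly above the M82 level. In IL-1_1_3 it read 4.81, 4.66 and 4.91. In IL-4_2 it read 4.95, 4.89, 5.02 and 4.96. In IL-7_2 it read 5.58, 4.86, 5.69 and 5.05, so that arrays 1 and 3 lay above all M82 arrays and arrays 2 and 4 within their range. IL-8_1_1 exceeded IL-1_1_3 by 0.78 ± 0.20 and IL-4_2 by 0.62 ± 0.18 log2 units without overlap. How many probe sets do so between these lines was not counted. IL-8_1_1 exceeded IL-7_2 by 0.28 ± 0.18 (95% interval -0.10 to 0.67), and those 2 groups overlapped.

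None of the tested LOX1.1 differences was called. The limma difference from M82 was -0.08 ± 0.18 in IL-1_1_3 (adjusted p = 0.810, 95% interval -0.47 to 0.30) and 0.08 ± 0.17 in IL-4_2 (limma, adjusted p = 0.843, 95% interval -0.27 to 0.43). In IL-7_2 it was 0.42 ± 0.17 (limma, unadjusted p = 0.0228, adjusted p = 0.25, 95% interval 0.06 to 0.77). The exact permutation test of IL-7_2 against M82 gave p = 0.0524, and 0.105 adjusted over the 6 comparisons. Between lines, IL-7_2 minus IL-1_1_3 was 0.50 ± 0.20 (limma, adjusted p = 0.187), IL-7_2 minus IL-4_2 was 0.34 ± 0.18 (limma, adjusted p = 0.369) and IL-4_2 minus IL-1_1_3 was 0.16 ± 0.20 (limma, adjusted p = 0.966). The order of means was IL-1_1_3, M82, IL-4_2, IL-7_2 and IL-8_1_1, and each neighbour in that order overlapped with the next.

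The LOX1.1 probe set was brighter than 8.85% to 19.3% of probe sets in its array. At so dim a signal a log2 difference may understate a difference in transcript, and LOX1.1 was among the probe sets removed when the dimmest 0.25 of probe sets was left out. Its SD in IL-8_1_1 was 0.419, against 0.221 pooled over the other groups, a ratio of 1.89. LOX1.1 spread nearly as widely in IL-7_2 (SD 0.404), and its SD was 0.055 to 0.147 in the remaining groups. Of the probe sets tested, 8.08% had an SD at least as large as that of LOX1.1 in IL-8_1_1, and 29.8% in IL-7_2.

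**Figure D2:**
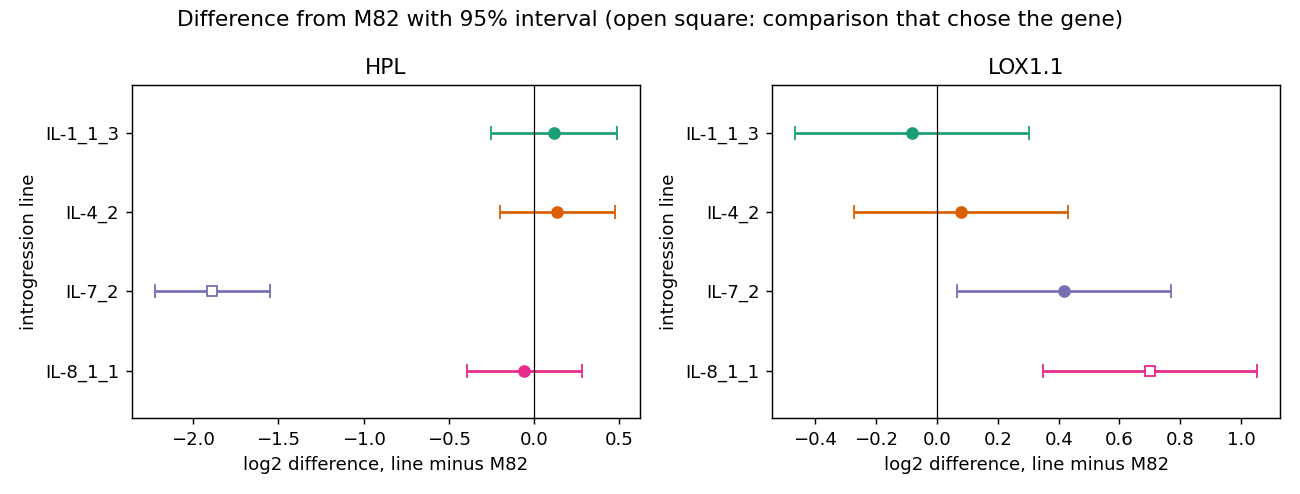
Log2 difference of each line from M82 for HPL (left) and LOX1.1 (right), with the 95% interval of the linear model over 21 arrays. Open squares mark the comparisons that chose the genes: HPL at -1.89 in IL-7_2 and LOX1.1 at 0.70 in IL-8_1_1. Among the filled points, only the interval of LOX1.1 in IL-7_2 (0.06 to 0.77) leaves out 0, and its adjusted p was 0.25.

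HPL and LOX1.1 were set beside 28 other oxylipin genes: 4 lipoxygenases, 2 CYP74 enzymes, 4 later jasmonate enzymes, the alcohol dehydrogenase ADH2, 8 lipid genes, 2 signalling genes and 7 genes listed as response genes. The list was chosen with earlier results of these data known, so the counts below are descriptions. In IL-7_2 limma called 1 of the 28, a fall, where 2.84% of all probe sets were called (1.7% rose and 1.14% fell). In IL-1_1_3 none was called, where 1.97% of all probe sets were (0.941% rose and 1.03% fell). In IL-4_2 none was called, where 1.83% of all probe sets were (0.881% rose and 0.95% fell). In IL-8_1_1 none was called, where 1.44% of all probe sets were (0.624% rose and 0.812% fell). At an unadjusted limma p under 0.05 the counts were 8 of 28 in IL-1_1_3 (20.1% of all probe sets), 8 in IL-4_2 (12.5%), 6 in IL-7_2 (13.7%) and 0 in IL-8_1_1 (6.82%). The median difference of the 28 genes was 0.11 in IL-1_1_3, 0.10 in IL-4_2, -0.03 in IL-7_2 and 0.05 in IL-8_1_1, beside 0.03, 0.03, 0.04 and 0.01 over all probe sets.

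**Figure D3:**
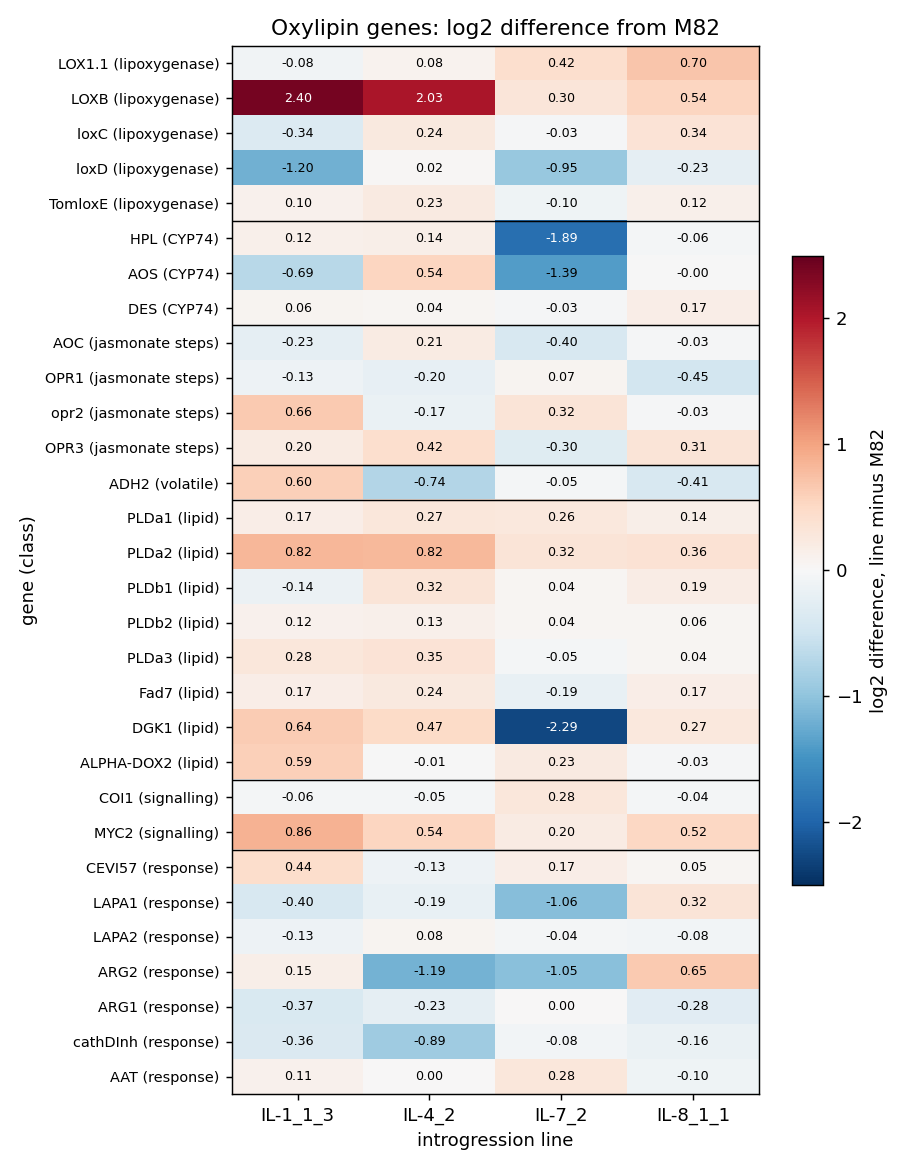
Log2 difference from M82 in each line for the 30 oxylipin genes measured, grouped by role, with the value printed in each cell (red higher in the line, blue lower). In the IL-7_2 column HPL (-1.89), AOS (-1.39) and DGK1 (-2.29) have the lowest values, and in the IL-8_1_1 column LOX1.1 (0.70) has the highest.

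Of the other CYP74 enzymes, AOS had a low mean in IL-7_2 that did not pass the test. AOS read 7.54, 4.80, 5.35 and 6.56 in IL-7_2 and between 7.04 and 7.80 in M82. IL-7_2 array 1 lay within the M82 range, and the other 3 arrays lay below it. The difference was -1.39 ± 0.49 (limma, adjusted p = 0.167). Over the 10 fits that each left out 1 array it ran from -1.89 to -0.97 (limma, adjusted p = 0.0411 to 0.317). Only the fit without IL-7_2 array 1, the array within the M82 range, was called (-1.89, limma adjusted p = 0.0411). Its order over the IL-7_2 arrays was not that of HPL, as array 1 was the highest for AOS and the second lowest for HPL. AOS differed from M82 by -0.69 ± 0.54 in IL-1_1_3 (limma, adjusted p = 0.454), by 0.54 ± 0.49 in IL-4_2 (limma, adjusted p = 0.662) and by less than 0.01 in IL-8_1_1. DES, also dim, read 4.08, 4.03, 3.98 and 4.01 in IL-7_2 and between 3.90 and 4.11 in M82, and its differences in the 4 lines ran from -0.03 to 0.17.

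None of the 4 other lipoxygenases was called in a line, but 3 were when arrays were weighted by quality. LOXB was then called in IL-1_1_3 (3.54, limma adjusted p = 0.0409) and IL-4_2 (3.32, limma adjusted p = 0.0228). LoxD was called in IL-1_1_3 (-0.96, limma adjusted p = 0.0304) and TomloxE in IL-4_2 (0.28, limma adjusted p = 0.0185). With those weights 2525 of all 10101 probe sets were called in IL-1_1_3 and 1863 in IL-4_2, beside 199 and 185 without them. LoxC, a chloroplast 13-lipoxygenase of volatile formation, read 4.81, 6.33, 5.09 and 4.63 in IL-8_1_1 and between 4.83 and 4.99 in M82 (difference 0.34 ± 0.26, limma adjusted p = 0.846). IL-8_1_1 array 2 was its highest value, as it was for LOX1.1 (6.18) and for DES (4.77), and without that array the loxC difference was -0.03. It was also the array with Stig1 at 8.86. The mean of the 6 markers listed for pollen was 11.60 there and 10.17 to 10.43 in the other 3 arrays. Without Stig1 the mean of the remaining 5 was 12.15 there and 11.37 to 11.67 in the other 3. The part of these markers in the LOX1.1 values was not tested.

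LoxD, the 13-lipoxygenase of wound jasmonate, read 10.01, 7.83, 9.92 and 10.28 in IL-7_2 and between 10.09 and 10.66 in M82 (difference -0.95 ± 0.41, limma adjusted p = 0.300). In IL-1_1_3 it read 10.07, 8.10 and 9.63 (difference -1.20 ± 0.45, limma adjusted p = 0.152). In each of these lines array 2 alone was more than 1 log2 unit below the rest. TomloxE differed by -0.10 to 0.23 over the 4 lines, with the highest value in IL-4_2 (limma, adjusted p = 0.381).

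LOXB, a 9-lipoxygenase as LOX1.1 is, varied widely within IL-7_2 (SD 2.98), IL-8_1_1 (SD 1.7) and M82 (SD 3.09), and less within IL-1_1_3 (SD 0.66) and IL-4_2 (SD 0.55). It read 10.02, 12.32, 6.13 and 6.40 in IL-7_2, and 11.08, 5.17, 11.83, 10.72, 6.15 and 5.56 in M82. Arrays 3 and 4 of IL-7_2 and arrays 2, 5 and 6 of M82 were thus low, and the others of both groups high. Neither of these groups had a value between 6.40 and 10.02. In IL-8_1_1 LOXB read 8.25, 8.82, 7.42 and 11.36, so that arrays 1, 2 and 3 fell inside that gap. LOXB was high in all arrays of IL-1_1_3 (10.82, 10.17 and 11.48) and in IL-4_2 (10.77, 10.79, 10.62 and 9.63), with differences from M82 of 2.40 ± 1.53 (limma, adjusted p = 0.372) and 2.03 ± 1.40 (limma, adjusted p = 0.584). LOX1.1 did not split M82 this way: its 3 M82 arrays with low LOXB read 4.88, 5.06 and 4.99, and its 3 with high LOXB read 4.92, 4.72 and 4.68.

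Among the remaining genes the called fall in IL-7_2 was DGK1, a diacylglycerol kinase of phospholipid signalling. DGK1 read 6.73, 7.41, 5.80 and 5.94 in IL-7_2 and between 8.21 and 9.11 in M82. The groups did not overlap, and 1.23% of all probe sets lay wholly below M82 in that line. The DGK1 difference was -2.29 ± 0.25 (limma, adjusted p = 8.13e-06). The list that holds DGK1 was chosen with earlier results of these data known, so its p-values are no independent test. In the other lines it was 0.27 to 0.64 and not called. Later jasmonate steps had none of 4 genes called in any line, with OPR3, the 12-oxophytodienoate reductase of jasmonate synthesis, at -0.30 in IL-7_2. ADH2, which reduces aldehydes to alcohols, read 9.29, 9.31, 9.16 and 9.52 in IL-4_2 and between 9.43 and 10.79 in M82 (difference -0.74 ± 0.20, limma adjusted p = 0.0739). In IL-7_2 ADH2 differed by -0.05. MYC2 and COI1, which act in jasmonate signalling, and the 7 genes listed as response genes gave no call in any line.

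Marker lists for other tissues were read beside HPL. All 5 green-tissue genes had a lower mean in IL-7_2 than in M82, with a median difference of -0.40, and 1 was called, PsbQ (limma, adjusted p = 0.0301), where 2.84% of all probe sets were called. The same 5 genes also had lower means in IL-1_1_3 (median -0.73, 2 called, where 1.97% of all probe sets were called) and in IL-4_2 (median -0.28, none called, where 1.83% of all probe sets were called). The mean of the green-tissue genes ran from 9.44 to 9.90 over the IL-7_2 arrays and from 9.72 to 10.45 over the M82 arrays. The mean of the pollen list ran from 9.46 to 10.82 in IL-7_2 and from 9.78 to 10.59 in M82, with none of 6 genes called. The mean of the wound markers LAPA1 and ARG2 ran from 8.56 to 12.36 in IL-7_2 and from 11.26 to 12.77 in M82, with neither called. Their part in the HPL difference was not tested. A wild-species HPL transcript that binds the probes less well and a lower transcript level cannot be told apart in these values.

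Inside IL-7_2, HPL and some of the other oxylipin genes separated arrays 1 and 2 from arrays 3 and 4. LOX1.1 did not, as arrays 1 and 3 were its higher pair (5.58 and 5.69, beside 4.86 and 5.05 in arrays 2 and 4), and nor did AOS, loxD or TomloxE. The genes that did were picked out after their values were seen. HPL read 11.50 and 11.08 in arrays 1 and 2, and 12.37 and 12.10 in arrays 3 and 4. AOC, the allene oxide cyclase that follows AOS, read 11.26 and 10.60 in arrays 1 and 2, and 11.97 and 11.72 in arrays 3 and 4. LOXB and MYC2 ran the opposite way: MYC2 read 12.07 and 12.79 in arrays 1 and 2, and 10.56 and 10.67 in arrays 3 and 4. DGK1 ran with LOXB, at 6.73 and 7.41 in arrays 1 and 2, and 5.80 and 5.94 in arrays 3 and 4. In M82, arrays 1, 3 and 4 had high MYC2 (11.91, 11.96 and 11.55) and arrays 2, 5 and 6 low MYC2 (10.82, 10.90 and 10.83). LOXB had the same split, and so did the main axis of variance within groups given below. The split was thus not particular to LOXB and MYC2. HPL in M82 did not follow this split. It read 13.66, 13.63 and 13.66 in arrays 1, 3 and 4, and 13.71, 13.58 and 13.67 in arrays 2, 5 and 6.

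**Figure D4:**
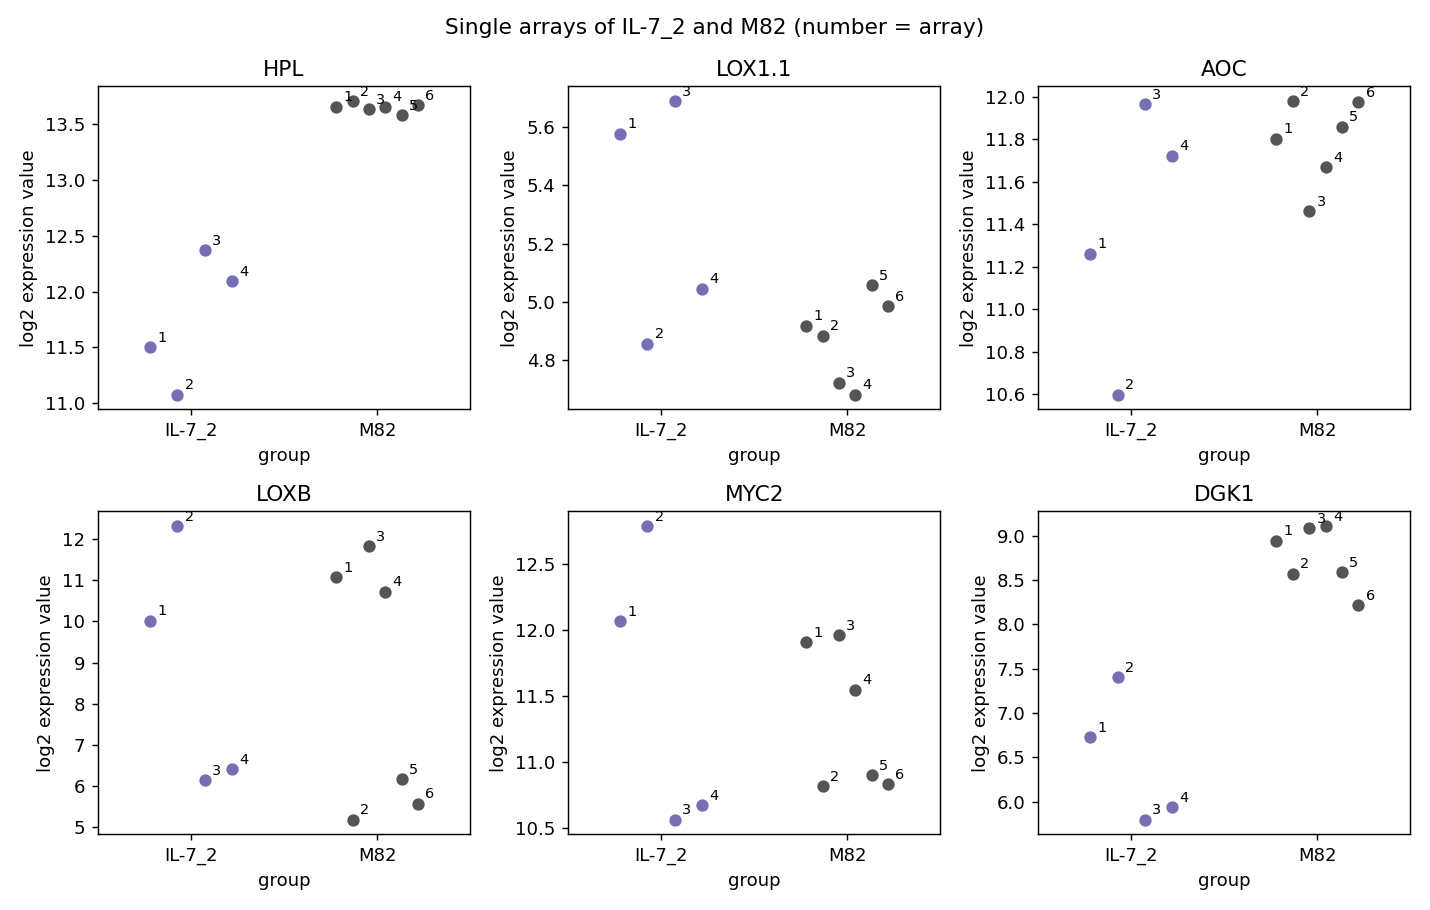
Log2 expression value of 6 genes in the 4 IL-7_2 arrays (left) and the 6 M82 arrays (right), with the array number beside each point. In IL-7_2, arrays 3 and 4 are the higher pair for HPL and AOC and the lower pair for LOXB, MYC2 and DGK1, while in M82 the LOXB values split widely (5.17 to 11.83) and the HPL values do not (13.58 to 13.71).

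A single axis held 59.2% of the variance within groups (the first principal component of deviations from group means, with HPL and LOX1.1 left out). Its sign is arbitrary. The IL-7_2 arrays scored -8.35, -63.2, 38.5 and 33.1 on it, so that array 2 stood apart. In M82, arrays 1, 3 and 4 scored -7.40, -34.57 and -18.36, and arrays 2, 5 and 6 scored 20.17, 14.17 and 25.99. By the sign of their scores the arrays of both groups were thus split as LOXB and MYC2 split them. Deviations of HPL from group means went with this axis at r = 0.751 over 21 arrays (permutation within groups, p = 0.0223, 0.0668 adjusted over 3 relations) and at Spearman's rho = 0.574 (permutation p = 0.0526, adjusted 0.158). Without the 2 arrays farthest from the median score, IL-7_2 array 2 and M82 array 3, r was 0.550, and without all 4 IL-7_2 arrays it was 0.131, so the relation rests on IL-7_2. For LOX1.1 and the axis r was 0.230 (permutation p = 0.533, adjusted 0.533) and rho 0.145 (permutation p = 0.593, adjusted 0.593), and r was -0.270 without the same 2 arrays.

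The relation of HPL with LOX1.1 within groups did not pass its test, and r changed sign when arrays were left out. Over 21 arrays r was 0.379 (permutation p = 0.358, adjusted 0.533) and rho 0.268 (permutation p = 0.345, adjusted 0.518). Without IL-7_2 arrays 2 and 3, the 2 farthest in HPL, r was -0.281. Without the 4 IL-7_2 arrays it was 0.211.

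The probe sets whose pattern over the 21 arrays was most like that of HPL were those low in IL-7_2, which the choice of HPL brings with it. The named ones were FLACCA, a molybdenum cofactor sulfurase (r = 0.964), mMDH1 (r = 0.963), LOC606305 (r = 0.951), LOC543817 (r = 0.880) and CDPK1 (r = 0.859). The unnamed probe sets LesAffx.37855.1.S1_at (r = 0.978) and Les.1297.2.A1_at (r = 0.968) came closest. In all, 31 probe sets had r above 0.9. FLACCA read 5.91, 6.02, 6.36 and 6.54 in IL-7_2 and between 10.07 and 10.39 in M82, a difference of -4.05, and it spread less inside IL-7_2 than HPL did (SD 0.294 against 0.583). Over the 17 arrays outside IL-7_2 the r with HPL was -0.203 for FLACCA, 0.132 for mMDH1 and 0.617 for CDPK1.

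Once group means were removed, other probe sets came closest to HPL. They were AOC (r = 0.885), FRO1 (r = 0.867), LOC543699 (r = 0.851), FPPS1, a farnesyl diphosphate synthase (r = 0.833), and FTB (r = 0.825) among named ones, and the unnamed Les.3186.3.A1_at (r = 0.961) and Les.3186.1.S1_at (r = 0.954). Les.3186.3.A1_at read 12.26, 11.42, 13.75 and 13.11 in IL-7_2 and between 14.20 and 14.45 in M82. Les.3186.1.S1_at read 12.42, 11.76, 13.84 and 13.01 in IL-7_2 and between 13.99 and 14.22 in M82. Both rank the IL-7_2 arrays as HPL does, with array 2 lowest, then 1, 4 and 3. Both lay wholly below M82 in that line, as did 1.23% of all probe sets. AOC ranked those arrays the same way but overlapped with M82 (difference -0.40 ± 0.19, limma adjusted p = 0.358). Outside IL-7_2 the r with HPL was 0.593 for AOC, 0.0754 for Les.3186.3.A1_at and 0.325 for Les.3186.1.S1_at. All these r values are descriptions over arrays that share their normalization.

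**Figure D5:**
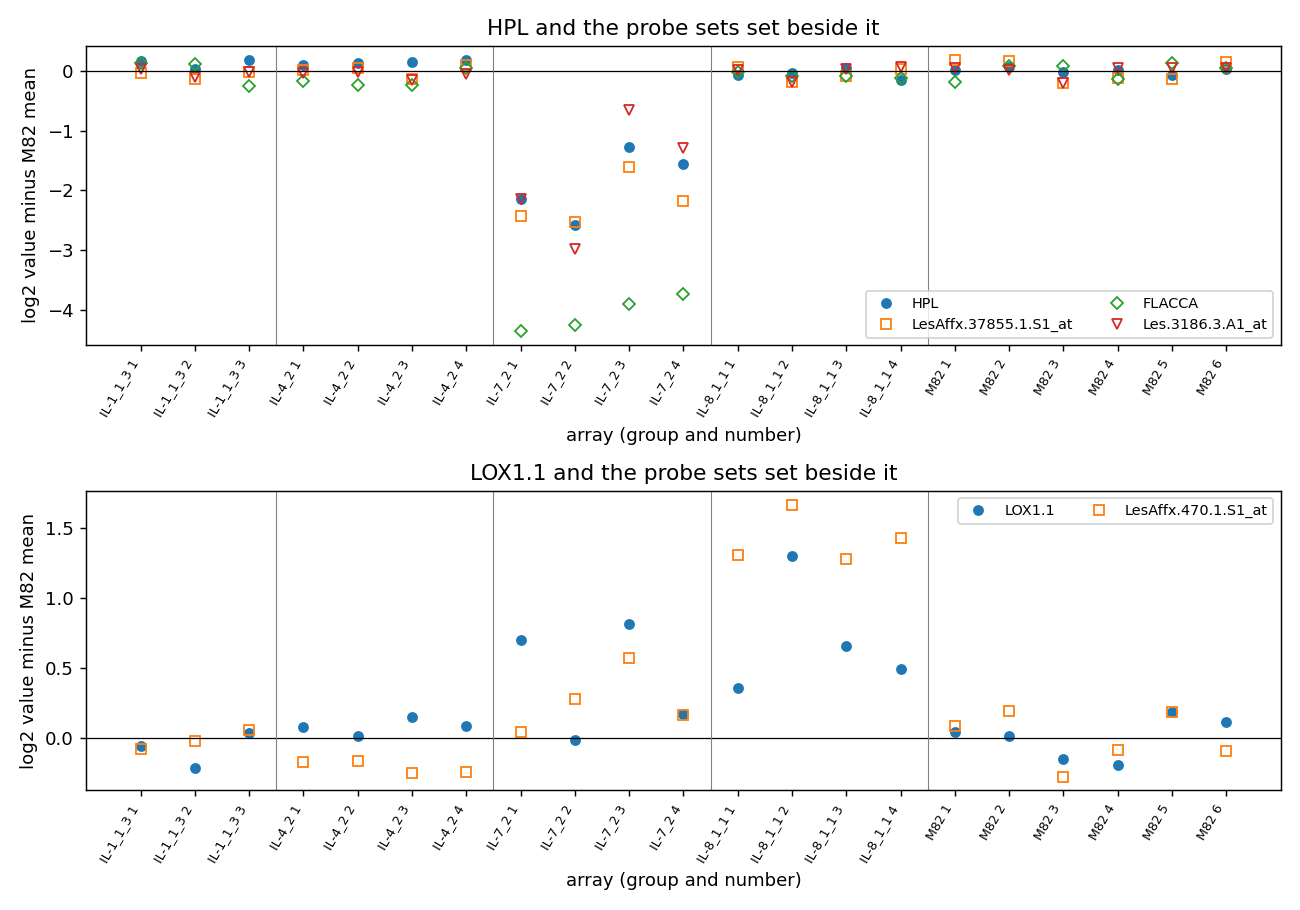
Log2 value minus the M82 mean in each of the 21 arrays, for HPL with 3 probe sets of like pattern (top) and for LOX1.1 with 1 (bottom). In IL-7_2 FLACCA lies about 4 log2 units down in all 4 arrays (5.91 to 6.54 as log2 values), while Les.3186.3.A1_at spreads over the arrays as HPL does (11.42 to 13.75), and LesAffx.470.1.S1_at is high in all 4 IL-8_1_1 arrays (6.46 to 6.84).

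LOX1.1 had no close match. Over 21 arrays the named probe sets most like it were LOC543855 (r = 0.686), AMT1-2, an ammonium transporter (r = 0.670), ER-SHSP (r = 0.659), LOC543971 (r = 0.640) and OVATE (r = 0.618), and the unnamed ones LesAffx.470.1.S1_at (r = 0.751) and LesAffx.62398.1.S1_at (r = 0.740). None had r above 0.9. LesAffx.470.1.S1_at read 6.48, 6.84, 6.46 and 6.60 in IL-8_1_1 and between 4.90 and 5.36 in M82, a difference of 1.42. With group means removed the named ones were MPK3 (r = 0.705), IAA17 (r = 0.679), Stig1 (r = 0.659), AMT1-2 (r = 0.615) and the jasmonate enzyme OPR3 (r = 0.603), with Les.435.1.S1_at (r = 0.808) and Les.1451.1.A1_at (r = 0.805) among unnamed ones. Several of these values rest on IL-8_1_1 array 2. Without it r fell to 0.185 for Stig1, 0.0963 for AMT1-2 (group means removed) and 0.0542 for OVATE, while it was 0.699 for OPR3, 0.695 for LOC543971 and 0.845 for Les.435.1.S1_at.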

How the data were processed

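The authors deposited 1 table of log2 expression values for 21 Affymetrix arrays. The affy package made them, per the submitters' processing notes; its version and the summarisation and normalization steps were not given in the sources used here. The range of the values shows the log2 scale. RNA was biotin labelled, per the labels' protocols. The labels give no scan date or batch. The 108 control probe sets were left out of 10209.

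Groups came from sample titles. Each line was compared with M82, and lines with each other, in 1 limma model of 5 groups (limma 3.58.1, R 4.3.3, lmFit and eBayes, 16 residual degrees of freedom), with Benjamini-Hochberg adjustment over 10101 probe sets and calls at 0.05. The model was also run on simulated data with independent noise and the same spread in all groups. These data differ from that setting, so that run does not test the results above. Relations within groups used 100000 permutations. Symbols came from the platform annotation, which can be old (909 probe sets, 802 genes). A gene with several probe sets was represented by its brightest.

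HPL, LOX1.1 and all gene lists were chosen with earlier results of these data known. The genes named were the lipoxygenases and CYP74 enzymes, other list genes called in a line, and the 5 named and 2 unnamed probe sets of most similar pattern. ADH2, AOC, MYC2, COI1, OPR3, PsbQ and marker genes were named after their values were seen. Chromosome positions and sequences were not used here. Alternatives tried were cyclic loess and quantile scaling, 2-group models, a dim-signal filter, array weights, an intensity trend, a replicate block, a threshold of 0.01 and leaving out each array.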

Additional observations from a re-analysis of the deposited data

Results flagged for a closer look

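Dixon's criterion was applied to 9 genes (the lipoxygenases, the CYP74 enzymes and DGK1). In 6 of 36 sets of arrays, 1 array stood far from the rest of its group. Chance alone gives about 1 of 20 in independent sets. These sets share arrays, and the share over all probe sets was not computed, so no excess can be read from the count. LOXB read 9.63 in IL-4_2 array 4, where the others ran from 10.62 to 10.79. LoxC read 5.87 in IL-4_2 array 3 (others 4.81 to 4.91) and 4.99 in M82 array 2 (others 4.83 to 4.87). LoxD read 10.19 in IL-4_2 array 2 (others 10.57 to 10.60) and 7.83 in IL-7_2 array 2 (others 9.92 to 10.28). DES read 3.90 in M82 array 6 (others 4.07 to 4.11).

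In 48 comparisons between lines, limma called 4. The share of all probe sets called between lines is not given here. All 4 involve IL-7_2, and those of DGK1 rest on the same IL-7_2 arrays. AOS was lower in IL-7_2 than in IL-4_2 by -1.93 log2 units (limma, adjusted p = 0.0425). DGK1 in IL-7_2 differed by -2.92 from IL-1_1_3 (limma, adjusted p = 2.17e-06), by -2.76 from IL-4_2 (limma, adjusted p = 1.12e-06) and by -2.56 from IL-8_1_1 (limma, adjusted p = 3.79e-06). The gene list was chosen with earlier results of these data known, so these are no independent tests.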

How the results depend on the processing

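The HPL difference of IL-7_2 from M82 kept its direction under every alternative run (-2.09 to -1.66 without 1 array, -1.92 to -1.52 otherwise), as did that of LOX1.1 in IL-8_1_1 (0.50 to 0.82 and 0.49 to 0.77), for which the dim-signal filter gave no value. Of the 6 tested comparisons of the pair, 1 crossed the threshold: HPL in IL-4_2 at 0.14 in the exact permutation test, which was chosen after seeing the data, as was leaving out the IL-7_2 arrays, IL-8_1_1 array 2 or Stig1. Counts of called probe sets moved more. With 2 groups only they were 86 in IL-1_1_3 and 106 in IL-7_2; with array weights 2525 in IL-1_1_3, 1863 in IL-4_2, 851 in IL-7_2 and 311 in IL-8_1_1; and at 0.01 they were 43 in IL-1_1_3, 109 in IL-4_2 and 153 in IL-7_2. Without 1 array they ran from 43 (IL-1_1_3 array 2) to 587 (M82 array 3) in IL-1_1_3, 118 (IL-4_2 array 3) to 237 in IL-4_2, 216 to 361 in IL-7_2 and 111 to 151 in IL-8_1_1; in IL-1_1_3 they were also 126, 95, 84 and 61 without M82 array 1, 2, 5 or 6, and 88 and 64 without IL-1_1_3 array 1 or 3. Of the 28 other oxylipin genes, 1 was called in IL-1_1_3 with 2 groups only, and array weights called 9 in IL-1_1_3, 10 in IL-4_2 and 2 in IL-7_2; without 1 array the count was 0 in IL-1_1_3 and IL-8_1_1, 0 to 2 in IL-4_2 (2 without M82 array 3, 1 without M82 array 4) and 1 to 2 in IL-7_2 (2 without M82 array 1, IL-7_2 array 1 or IL-7_2 array 2). A replicate block left 32 calls in IL-1_1_3, 92 in IL-4_2, 137 in IL-7_2 and 83 in IL-8_1_1, and gave -1.90 for HPL in IL-7_2 and 0.77 for LOX1.1 in IL-8_1_1; array numbers did not pair the samples, as r of same-numbered deviations ran from -0.806 to 0.698 with 13 of 36 pairs over 0.1. The sign turned for AOS in IL-8_1_1 with quantile scaling (0.012) and the block (0.012), for LOXB in IL-7_2 with array weights (-0.62) and the block (-0.98), for LOXB in IL-8_1_1 with the block (-0.74) and for loxD in IL-4_2 with array weights (-0.14). Leaving out 1 array turned the sign within these ranges, none of them called: LOXB -0.90 to 1.16 in IL-7_2 and -0.26 to 1.23 in IL-8_1_1; loxC -0.012 to 0.34 in IL-4_2, -0.10 to 0.10 in IL-7_2 and -0.034 to 0.53 in IL-8_1_1; loxD -0.050 to 0.12 in IL-4_2; AOS -0.47 to 0.21 in IL-8_1_1; and DES -0.0092 to 0.26 in IL-8_1_1. Within groups, r of HPL with LOX1.1 was -0.281 without the 2 farthest arrays, and r of LOX1.1 with the axis was -0.270 without the 2 farthest and -0.125 without the IL-7_2 arrays. The cause of these changes was not tested. Scaling moved the median of all probe sets by no more than 0.04.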
